A study of Mus musculus with 18 samples.

Results

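The immediate early AP-1 and EGR genes Fos, Fosb, Fosl1, Jun, Junb, Egr1, Egr2, Egr3, Ier3 and Dusp1 were followed across 6 groups of mouse mammary cells, with 3 arrays in each group. These 10 genes were taken by gene symbol from the 19938 genes measured, and all 10 of 10 were on the array. Each has 1 probe set that is assigned to it alone, so no choice between probe sets was needed. Comma-D, an epithelial line of the normal mouse mammary gland, is labelled normal, erbB2- and P-erbB2- (no phosphorylated erbB2). MMTV-neu is a line from mouse mammary tumours that carry the neu (erbB2) oncogene behind the mouse mammary tumour virus promoter, and its labels are cancer, erbB2+ and P-erbB2+. The lines were grown together at 1:50 or 1:1 and each co-culture was separated with an anti-erbB2 antibody into an erbB2- fraction, labelled normal, and an erbB2+ fraction. The 1:50 erbB2+ fraction is labelled redirected, erbB2+ and P-erbB2-, and the 1:1 erbB2+ fraction is labelled cancer, erbB2+ and P-erbB2+. Comma-D and the co-cultures were kept in DMEM/F12 with 2% fetal bovine serum, EGF at 5 ng/ml and insulin at 10 ug/ml, whereas MMTV-neu was kept in DMEM with 10% serum and no listed EGF or insulin. Which line was in excess in the 1:50 co-culture cannot be read from the titles.

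Immediate early genes are transcribed within minutes of a growth factor, stress or adhesion signal, without new protein synthesis, mainly through ERK, JNK and p38 MAP kinases acting on serum response factor, its ELK partners and CREB. FOS and JUN proteins pair into AP-1, which binds TGACTCA, and EGR proteins are zinc finger factors that bind GC-rich sites. Their transcripts are short-lived, and the pathway shuts itself down through phosphatases such as DUSP1. In mammary epithelium they respond to EGF family ligands and to erbB2 signalling, and also to detaching and dissociating the cells.

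Values are log2 signals, so a difference of 1 is a doubling, and a gene was called at an adjusted p under 0.05 in limma, with Benjamini-Hochberg adjustment across the 19938 genes of each comparison. The spread of values over genes was widest in Comma-D (standard deviation per array 1.85 to 1.88) and the 1:50 erbB2- fraction (1.86 to 1.87) and narrowest in MMTV-neu (1.26 to 1.28). It was 1.64 to 1.82 in the 1:50 erbB2+, 1.49 to 1.74 in the 1:1 erbB2- and 1.319 to 1.425 in the 1:1 erbB2+ fraction. Replicate 1 of the 1:1 erbB2- fraction stood apart from its own group, with the lowest estimated array weight (0.151), and arrays of that group correlated with each other at 0.961 to 0.994 over genes. Nothing in the labels says that replicates were separate cultures, so p-values measure the spread between these samples. The sources used here do not say whether the unmixed lines went through trypsin, antibody and magnetic column as the fractions did. Co-culture and sorting can therefore not be told apart in any comparison of a fraction with an unmixed line, nor line and medium in any comparison with MMTV-neu. Of luminal epithelial markers, 10 of 12 lay above the array median in Comma-D and 9 of 12 in MMTV-neu, and of basal markers 10 of 11 and 9 of 11. Their levels still differed between the lines. In MMTV-neu 8 basal markers were called lower and 1 higher (median -2.06), and 4 luminal markers lower and 6 higher (median 0.50). Of all genes, 30.4% were called lower and 56.4% higher. The sort was by antibody, and so by erbB2 protein and not transcript. Erbb2 transcript differed between the erbB2+ and erbB2- fractions by -0.05 (SE 0.10, adjusted p = 0.813) at 1:50 and by 0.08 (SE 0.10, adjusted p = 0.513) at 1:1. Its mean was 8.06 in MMTV-neu and 8.20 in Comma-D. This probe set was therefore not higher even in the unmixed erbB2+ line, and it gave no check of the sort.

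RefSeq promoter windows (GRCm38.p6) were used for 7 of the 10 genes, and the 250 bases before each start were searched on both strands. No window was used for Fosl1, Egr1 and Egr3, so their motifs were not examined. The letters searched were TGACTCA for AP-1, TGACGTCA for the cyclic AMP response element, GCGTGGGCG or GCGGGGGCG for EGR, TATAAA for the TATA box, and the CArG box, the binding sequence of serum response factor. Upstream sequences are shown for Fos, Fosb, Dusp1 and Egr2, which held a match and were all called lower in the 1:50 fractions than in Comma-D, as given below. Whether a match goes with a call was not tested, and bases further upstream were not searched. Capitals mark the match, and each sequence is written 5′ to 3′ toward the gene.
Fos: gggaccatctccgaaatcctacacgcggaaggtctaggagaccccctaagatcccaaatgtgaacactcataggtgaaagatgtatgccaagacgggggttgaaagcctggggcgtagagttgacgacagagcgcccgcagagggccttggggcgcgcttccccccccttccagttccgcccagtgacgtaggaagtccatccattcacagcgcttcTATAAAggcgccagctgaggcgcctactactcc
Fosb: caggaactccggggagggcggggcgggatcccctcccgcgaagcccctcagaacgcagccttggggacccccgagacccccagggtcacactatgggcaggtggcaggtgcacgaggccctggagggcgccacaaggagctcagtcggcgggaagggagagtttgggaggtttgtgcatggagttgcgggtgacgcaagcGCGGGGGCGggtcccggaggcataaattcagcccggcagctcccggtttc
Dusp1: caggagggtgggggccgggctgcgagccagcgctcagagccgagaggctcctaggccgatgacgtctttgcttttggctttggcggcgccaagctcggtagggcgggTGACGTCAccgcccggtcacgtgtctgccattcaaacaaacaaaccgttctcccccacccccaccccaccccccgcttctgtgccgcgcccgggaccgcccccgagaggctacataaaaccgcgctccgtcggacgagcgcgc
Egr2: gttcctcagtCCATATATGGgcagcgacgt
The Fos window is chr12:85473640-85473889 on the plus strand, with TATAAA at positions -33 to -28 from the start. The Fosb window is chr7:19310046-19310295 on the minus strand, with GCGGGGGCG at -50 to -42. The Dusp1 window is chr17:26508473-26508722 on the minus strand, with TGACGTCA at -143 to -136. The Egr2 stretch of 30 bases is chr10:67537787-67537816 on the plus strand and holds a CArG box. Egr2 had windows at several starts, and this box begins at -72, -73 or -133 depending on the start. From a further start a different CArG box lies at -72 to -63 and is not shown, and another Egr2 window held no match. Of all 32851 windows of this length, TATAAA was in 12.4%, an EGR site in 3.06%, TGACGTCA in 1.55%, a CArG box in 1.47% and TGACTCA in 4.46%. TGACTCA was in 0 of the windows used for the 7 genes, and none of the motifs was in those of Jun, Junb and Ier3. No matches overlapped. A match is a description of the letters, not of a bound site.

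The 1:50 erbB2- fraction carries the same labels as Comma-D (normal, erbB2-, P-erbB2-) and shared its medium, and most of the immediate early genes were lower in it than in unmixed Comma-D. In that fraction 7 of the 10 genes were called lower and 0 higher, where 1.68% of all genes were called in either direction (1.08% lower). The median difference of the 10 genes was -0.88, against 0.017 over all genes and 0.023 over the 4985 genes with the highest means. The arrays of the groups did not overlap for 10 of the 10 genes, as for 27.7% of all genes. Fosb fell by 2.37 (SE 0.30, 5.18-fold, adjusted p = 0.000207) and Fos by 1.59 (SE 0.16, 3.01-fold, adjusted p = 2.64e-05). Egr1 fell by 1.22, Egr3 by 1.15, Fosl1 by 0.95, Egr2 by 0.81 and Dusp1 by 0.59. Jun (-0.53, adjusted p = 0.597), Ier3 (-0.50, adjusted p = 0.487) and Junb (-0.32, adjusted p = 0.394) did not pass. In bulk RNA, fewer cells with a transcript and less of it per cell cannot be told apart. The count was 4 without any 1 of the 3 Comma-D arrays or without replicate 2 of the 1:50 erbB2- fraction, 4 with arrays centred on reference genes and 3 after quantile normalization. Fos and Fosb were called in 16 of 16 alternative settings, and none of the 10 differences changed sign in them.

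**Figure D1:**
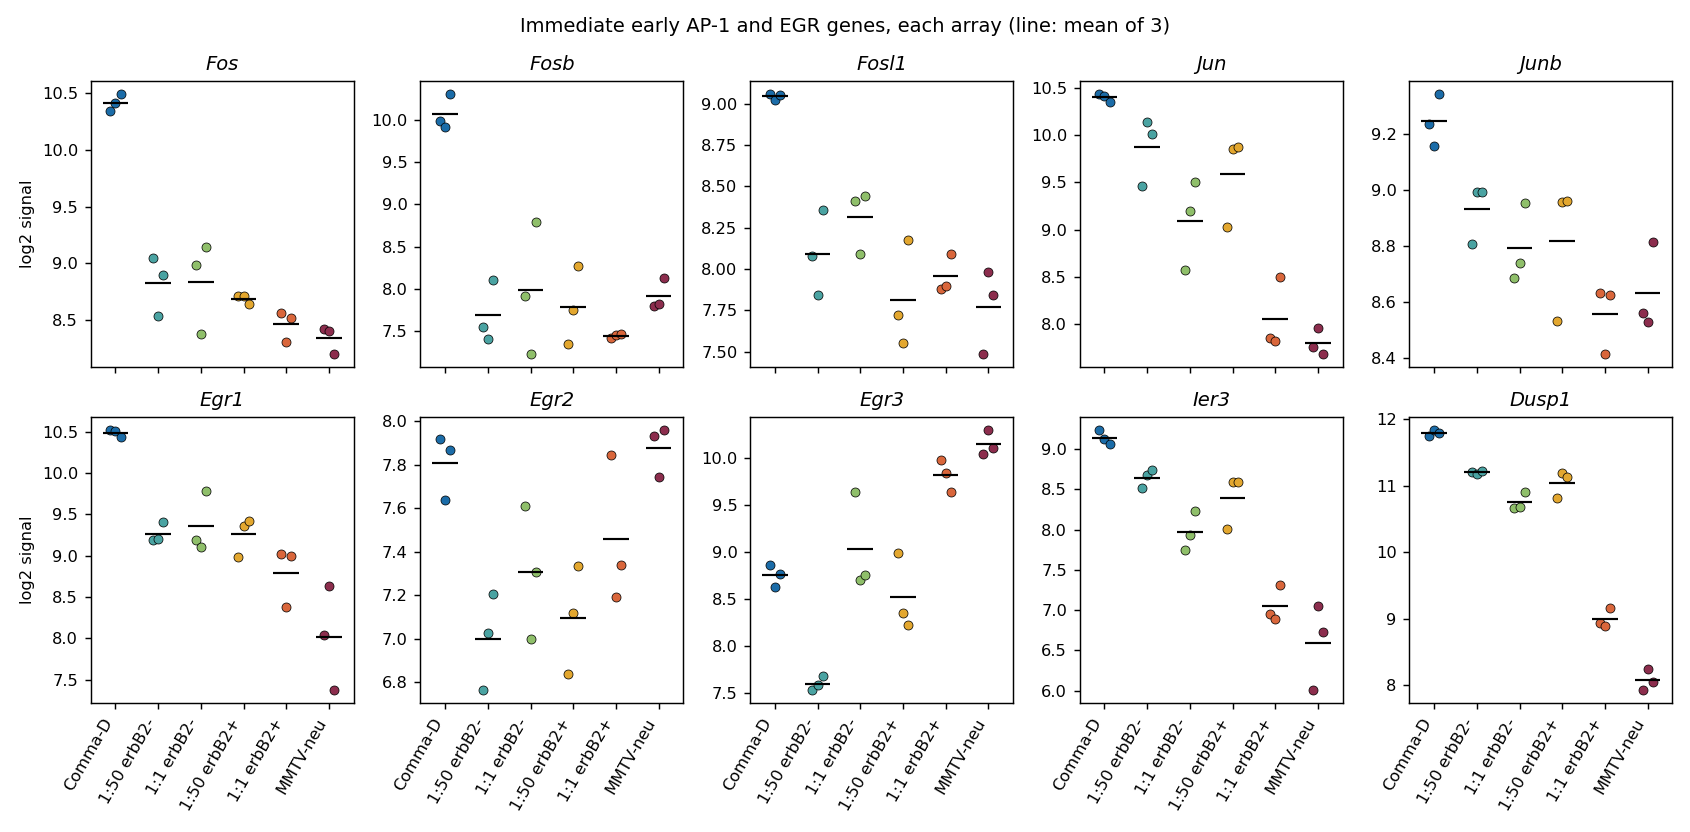
Log2 signal (vertical axis, a separate range for each gene) of the 10 immediate early AP-1 and EGR genes in the 6 groups (horizontal axis), where points are the 3 arrays of a group and lines their means. For every gene but Egr2 and Egr3 the 3 Comma-D arrays lie above the 15 others, and for Egr3 the MMTV-neu arrays lie highest.

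Fos encodes the founding FOS protein of AP-1. It read 10.34, 10.41 and 10.49 in Comma-D and 8.42, 8.40 and 8.20 in MMTV-neu. In the erbB2- fractions it read 9.05, 8.54 and 8.89 at 1:50 and 8.98, 8.38 and 9.14 at 1:1. In the erbB2+ fractions it read 8.71, 8.71 and 8.65 at 1:50 and 8.56, 8.31 and 8.52 at 1:1. The 3 Comma-D arrays were above the 15 others, and the 3 MMTV-neu arrays lay below those of both 1:50 fractions and overlapped those of both 1:1 fractions. In the order of group means, the step from Comma-D to the next group, the 1:1 erbB2- fraction, was 1.58 (adjusted p = 9.35e-06), and the 4 later steps, of 0.007 to 0.23, did not pass. Against Comma-D, Fos was lower by 1.72 (SE 0.16, adjusted p = 6.13e-06) in the 1:50 erbB2+ fraction, by 1.95 (adjusted p = 6.77e-08) in the 1:1 erbB2+ fraction and by 2.07 (adjusted p = 1.04e-08) in MMTV-neu.

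Fosb encodes a second FOS family partner of JUN. It read 9.98, 9.91 and 10.30 in Comma-D and 7.80, 7.82 and 8.13 in MMTV-neu. In the erbB2- fractions it read 7.55, 7.41 and 8.10 at 1:50 and 7.92, 7.23 and 8.79 at 1:1, and in the erbB2+ fractions 7.35, 7.75 and 8.27 at 1:50 and 7.42, 7.46 and 7.47 at 1:1. Again the 3 Comma-D arrays were above all others, and the 5 other groups overlapped, apart from the 1:1 erbB2+ fraction, whose arrays lay below those of MMTV-neu. The fall from Comma-D was 2.08 to 2.61 in the 4 fractions and MMTV-neu, and each of these 5 differences was called. The 1:1 erbB2- arrays spread most (SD 0.78, n = 3), and the 1:1 erbB2+ arrays least (SD 0.025, n = 3).

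Fosl1 encodes FRA-1, an AP-1 subunit known for a slower and longer rise after stimulation than FOS. It read 9.06, 9.02 and 9.05 in Comma-D and 7.49, 7.98 and 7.84 in MMTV-neu. The erbB2- fractions gave 8.08, 7.84 and 8.35 at 1:50 and 8.41, 8.09 and 8.44 at 1:1, and the erbB2+ fractions gave 7.72, 7.55 and 8.17 at 1:50 and 7.88, 7.89 and 8.09 at 1:1. Comma-D was above every other array. The differences from Comma-D were -0.95 (adjusted p = 0.00447) and -0.73 (adjusted p = 0.00457) in the 1:50 and 1:1 erbB2- fractions, and -1.23 (adjusted p = 0.00022) and -1.09 (adjusted p = 1.83e-05) in the 1:50 and 1:1 erbB2+ fractions. Its fall of 1.28 (SE 0.17) in MMTV-neu turned to 0.018 when arrays were centred on reference genes.

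Jun and Junb encode the JUN partners of AP-1, of which JUN also responds to JNK. Jun read 10.44, 10.41 and 10.36 in Comma-D and 7.76, 7.95 and 7.68 in MMTV-neu. At 1:50 it read 9.46, 10.14 and 10.02 in the erbB2- and 9.02, 9.86 and 9.88 in the erbB2+ fraction. At 1:1 it read 8.57, 9.20 and 9.51 in the erbB2- and 7.85, 7.82 and 8.49 in the erbB2+ fraction. Jun thus differed between the mixing ratios in the erbB2+ fractions, with the 1:50 arrays above all 3 of the 1:1 arrays, and the 1:1 erbB2+ arrays overlapped those of MMTV-neu. In its order of groups only the step from the 1:1 erbB2- to the 1:1 erbB2+ fraction was called (1.04, SE 0.26, adjusted p = 0.00363). Junb covered the narrowest range of group means of the 10 genes, with 9.16 to 9.34 in Comma-D and arrays from 8.41 to 8.99 elsewhere. Junb was called lower than in Comma-D by 0.45 (adjusted p = 0.0131) in the 1:1 erbB2- fraction, by 0.69 (adjusted p = 0.000111) in the 1:1 erbB2+ fraction and by 0.61 (adjusted p = 0.000252) in MMTV-neu, and the sign of each turned under quantile normalization (0.012, 0.28 and 0.46).

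Egr1 encodes the most studied EGR factor and, like Fos, is a serum response factor target. It read 10.52, 10.51 and 10.44 in Comma-D and 8.04, 8.63 and 7.37 in MMTV-neu, where the arrays spread over more than 1 log2 unit (SD 0.63, n = 3). The erbB2- fractions gave 9.19, 9.21 and 9.41 at 1:50 and 9.19, 9.10 and 9.78 at 1:1, and the erbB2+ fractions 8.99, 9.36 and 9.42 at 1:50 and 9.02, 8.38 and 8.99 at 1:1. All 12 arrays of the fractions lay below Comma-D. The fall from Comma-D was 1.22 (SE 0.25, adjusted p = 0.0166) and 1.13 (adjusted p = 0.00411) in the 1:50 and 1:1 erbB2- fractions, 1.23 (adjusted p = 0.0077) and 1.69 (adjusted p = 1.44e-05) in the erbB2+ fractions and 2.47 (adjusted p = 1.65e-07) in MMTV-neu. At 1:50 the call in the erbB2- fraction was lost in 6 of 16 alternatives, among them leaving out any 1 of the Comma-D arrays. The difference itself stayed between -1.29 and -1.17 in all 16.

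Egr2 encodes an EGR factor first known from Schwann cells and hindbrain, and it was the only 1 of the 10 genes not called between the lines. It ran from 7.64 to 7.92 in Comma-D and from 7.74 to 7.96 in MMTV-neu, and the line difference was 0.07 (95% interval -0.32 to 0.46, adjusted p = 0.723). That difference depended on scale, with 1.36 under reference gene centring and 0.66 after quantile normalization, both called, and -0.36 under median centring, which was not. At 1:50 it read 6.76, 7.03 and 7.20 in the erbB2- and 6.84, 7.12 and 7.33 in the erbB2+ fraction, and these 6 arrays lay below all 6 of the unmixed lines. It was called lower than in Comma-D in the 1:50 erbB2- (-0.81, SE 0.18, adjusted p = 0.0302) and erbB2+ (-0.71, adjusted p = 0.0297) fractions, and lower than in MMTV-neu in the erbB2+ fraction (-0.78, adjusted p = 0.000849). The 1:1 fractions, with 6.999 to 7.61 in the erbB2- and 7.19 to 7.84 in the erbB2+ arrays, overlapped the 1:50 fractions, and the erbB2+ arrays also overlapped the lines. The call at 1:50 was lost in 8 of 16 alternatives for the erbB2- and in 5 of 16 for the erbB2+ fraction.

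Egr3, an EGR gene that is itself an EGR1 target in lymphocytes and neurons, was highest in MMTV-neu. It read 8.85, 8.62 and 8.77 in Comma-D and 10.04, 10.29 and 10.10 in MMTV-neu. At 1:50 it read 7.53, 7.58 and 7.68 in the erbB2- and 8.99, 8.35 and 8.22 in the erbB2+ fraction. At 1:1 it read 9.64, 8.70 and 8.75 in the erbB2- and 9.97, 9.83 and 9.64 in the erbB2+ fraction. MMTV-neu was above Comma-D by 1.40 (SE 0.21, 2.63-fold, adjusted p = 1.25e-05), and the 1:1 erbB2+ fraction by 1.07 (adjusted p = 0.000252). The 1:50 erbB2- fraction was below every array of every other group, 1.15 below Comma-D (adjusted p = 0.00762) and 1.43 below the 1:1 erbB2- fraction (adjusted p = 0.00122). Against the 1:50 erbB2+ fraction it was lower by 0.92 (SE 0.21) with no overlap of arrays, but this did not pass over all genes (adjusted p = 0.199). Arrays of these 1:50 fractions did not overlap for 29.1% of all genes.

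Ier3 encodes a small stress-inducible protein that modulates ERK and survival signalling. It read 9.23, 9.13 and 9.07 in Comma-D and 6.01, 7.05 and 6.73 in MMTV-neu. At 1:50 it read 8.52, 8.68 and 8.74 in the erbB2- and 8.003, 8.59 and 8.59 in the erbB2+ fraction, and at 1:1 it read 7.75, 7.93 and 8.23 in the erbB2- and 6.96, 6.89 and 7.32 in the erbB2+ fraction. The 1:1 erbB2+ arrays overlapped those of MMTV-neu and lay below all other fractions. The step from the 1:1 erbB2- to the 1:1 erbB2+ fraction was 0.92 (SE 0.22, adjusted p = 0.00293) and was the only called step in its order of groups. The MMTV-neu arrays had a mean rank at the 44.9th percentile of their genes, so its fall of 2.55 there ended near the middle of the array.

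Dusp1 encodes MKP-1, a nuclear phosphatase that switches off p38, JNK and ERK and is induced with the genes it restrains. It read 11.75, 11.83 and 11.79 in Comma-D and 7.93, 8.25 and 8.05 in MMTV-neu, the widest line difference of the 10 genes (-3.71, SE 0.12, 13.1-fold, adjusted p = 2.15e-13). At 1:50 it read 11.20, 11.18 and 11.22 in the erbB2- and 10.82, 11.19 and 11.12 in the erbB2+ fraction. At 1:1 it read 10.66, 10.68 and 10.90 in the erbB2- and 8.95, 8.90 and 9.17 in the erbB2+ fraction. Comma-D was above all other arrays and MMTV-neu below all others. Called steps in its order of groups were Comma-D to the 1:50 erbB2- fraction (0.59, adjusted p = 0.0111), the 1:1 erbB2- to the 1:1 erbB2+ fraction (1.75, adjusted p = 3.36e-07) and the latter to MMTV-neu (0.93, adjusted p = 5.67e-05).

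The 1:50 erbB2+ fraction, labelled redirected, was next compared with the normal line. In it 6 of the 10 genes were called lower than in Comma-D and 0 higher, where 5.71% of all genes were called (4.54% lower), and the median difference was -0.78 against 0.0083 over all genes and -0.20 over the genes with the highest means. Fosb fell by 2.27 (SE 0.30, 4.83-fold, adjusted p = 0.000154), Fos by 1.72 and Fosl1 by 1.23, and these 3 were called in 16 of 16 alternatives. Egr1 fell by 1.23, Dusp1 by 0.75 (adjusted p = 0.000724) and Egr2 by 0.71. Ier3 (-0.75, adjusted p = 0.0536), Junb (-0.43, adjusted p = 0.0568) and Jun (-0.82, adjusted p = 0.0711) did not pass, although their arrays did not overlap those of Comma-D, and Egr3 (-0.23, adjusted p = 0.552) did overlap. The arrays did not overlap for 9 of the 10 genes, as for 37.5% of all genes. Estimated array weights raised the count to 10. This comparison and the one of the 1:50 erbB2- fraction share the 3 Comma-D arrays, so their likeness is not independent evidence.

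In the 1:1 erbB2- fraction 9 of 10 were called lower than in Comma-D, where 35.7% of all genes were called (20.9% lower), and the exception was Egr3 (0.28, adjusted p = 0.308). Of the 4985 genes with the highest means, 44.2% were called lower there. Quantile normalization left 4 calls among the 10 genes. In the 1:1 erbB2+ fraction 8 were lower and 1, Egr3, higher, where 78.3% of all genes were called (32.5% lower and 45.8% higher), and Egr2 did not pass (-0.35, adjusted p = 0.0894). A share that high leaves little to read from the count itself, and the split became 6 lower and 2 higher with reference gene centring. The sizes differed by gene: against Comma-D, Dusp1 was lower by 2.79 in the 1:1 erbB2+ and by 1.04 in the 1:1 erbB2- fraction, and Jun by 2.35 and 1.31.

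**Figure D2:**
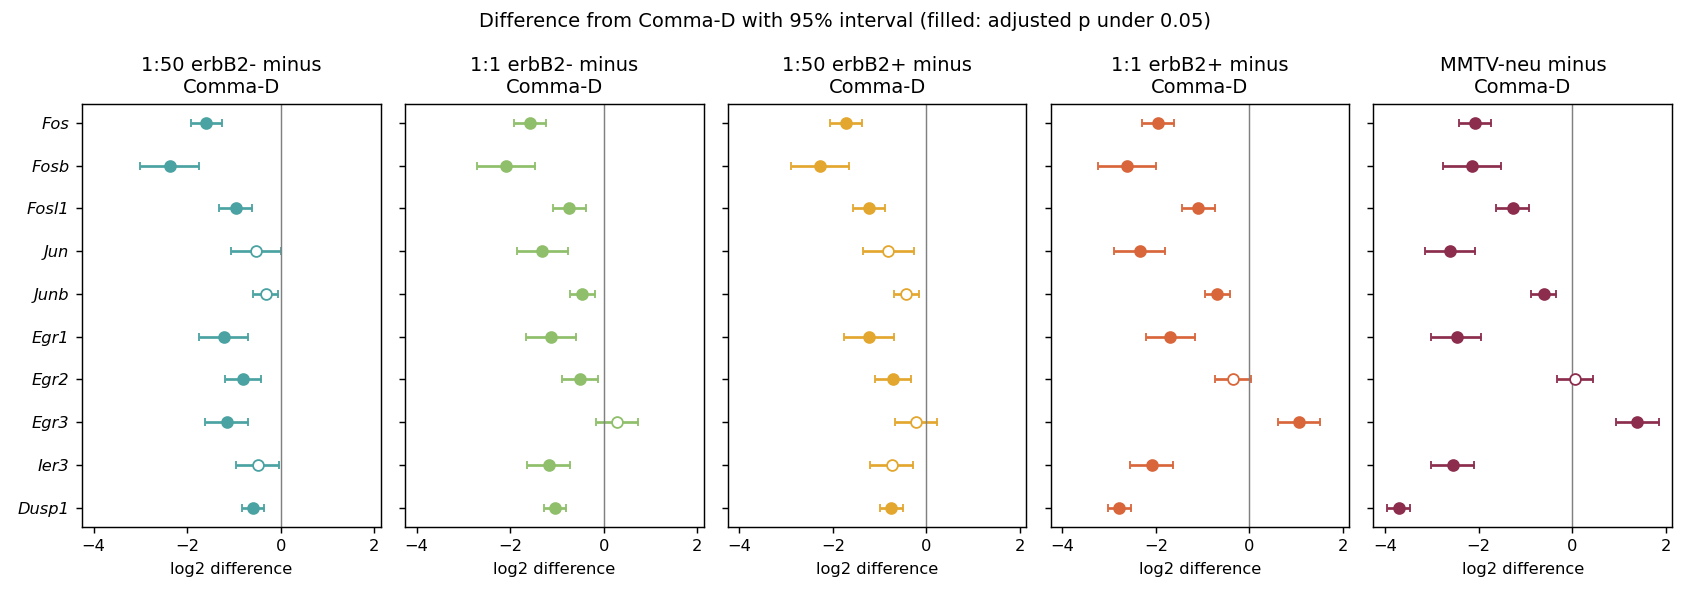
Difference from Comma-D (horizontal axis, log2) of each gene (vertical axis) in the 4 fractions and MMTV-neu, with 95% intervals from the limma fit and filled points where adjusted p was under 0.05. Fos and Fosb sit between -1.58 and -2.61 in every panel, whereas Dusp1 runs from -0.59 in the 1:50 erbB2- fraction to -3.71 in MMTV-neu and Egr3 from -1.15 to 1.40. Signs in the MMTV-neu panel turned for Junb under quantile normalization and for Junb and Fosl1 with reference gene centring.

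Against the tumour line, the 1:50 erbB2+ fraction differed in Jun, the EGR genes, Ier3 and Dusp1. Dusp1 was higher by 2.97 (SE 0.12, 7.81-fold, adjusted p = 4.09e-12), Ier3 by 1.80 (adjusted p = 1.96e-06), Jun by 1.79 (adjusted p = 9.69e-06) and Egr1 by 1.25 (adjusted p = 0.000246), and Egr3 was lower by 1.63 (adjusted p = 4.41e-06) and Egr2 by 0.78. In all, 6 of 10 were called, where 83.4% of all genes were, and the split of 4 higher and 2 lower became 3 and 6 with reference gene centring. The median difference over the 4985 genes with the highest means was 0.82. Egr1 lost its call with reference gene centring (0.16, adjusted p = 0.522) and also after quantile normalization (0.61). The FOS family did not pass: the difference was 0.35 for Fos (95% interval 0.0074 to 0.69, adjusted p = 0.0547), -0.13 for Fosb (95% interval -0.75 to 0.50) and 0.046 for Fosl1 (95% interval -0.31 to 0.40). Junb differed by 0.18 (95% interval -0.083 to 0.45). These values depend on scale: with reference gene centring Fosb (-1.21), Fosl1 (-1.04) and Fos (-0.73) were called lower in the fraction, and with median centring Fos was called higher (0.68).

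Between the erbB2+ fractions, which shared sort and medium and differed in mixing ratio, 4 of 10 genes were called where 71.4% of all genes were. Genes with high signal were in general higher at 1:50. Over the 4985 genes with the highest means the median difference was 0.76, against -0.19 over all genes, and 68.8% of the 4985 were called higher. Dusp1 was higher at 1:50 by 2.04 (SE 0.12, 4.11-fold, adjusted p = 2.5e-08), Jun by 1.53 (SE 0.26, adjusted p = 9.78e-05) and Ier3 by 1.34 (SE 0.22, adjusted p = 7.58e-05), and Egr3 was lower by 1.30 (SE 0.21, adjusted p = 8.78e-05). The arrays did not overlap for 5 of the 10 genes, these 4 and Fos, as for 78.7% of all genes. Fos (0.23, 95% interval -0.11 to 0.57), Fosb (0.34, -0.28 to 0.96), Fosl1 (-0.14, -0.49 to 0.21), Junb, Egr1 and Egr2 did not pass. The count rose to 7 after quantile normalization or median centring and with array weights, and to 8 with reference gene centring, where the signs of Fos (-0.56), Junb (-0.53), Fosb (-0.45) and Egr1 (-0.32) turned. The split of 3 higher and 1 lower became 3 and 5 with reference gene centring and 3 and 4 after quantile normalization. With a replicate block Junb (0.26) also passed (adjusted p = 0.0391 in all 18 arrays and 0.0489 in the 12 co-culture arrays), and Egr1 (0.46) in the latter (adjusted p = 0.0223).

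Between the erbB2- fractions 4 of 10 genes were called, where 30.3% of all genes were. The median difference of 1:50 minus 1:1 over the 4985 genes with the highest means was 0.45. At 1:50 Jun was higher by 0.78 (adjusted p = 0.0319), Ier3 by 0.67 (adjusted p = 0.0303) and Dusp1 by 0.45 (adjusted p = 0.0131), and Egr3 was lower by 1.43. The Jun arrays overlapped, and those of the other 3 did not, as for 56.9% of all genes. The count was 1 without replicate 1 of the 1:1 erbB2- fraction or after quantile normalization, 2 without replicate 2 or replicate 3 of the 1:50 erbB2- fraction, and 0 when only these 6 arrays were fitted. The split of 3 higher and 1 lower at 1:50 became 0 and 3 with reference gene centring.

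Within the 1:50 co-culture the erbB2+ and erbB2- fractions gave no called difference in the 10 genes. The limma fit called 0 of them, with 1, Egr3, at an unadjusted p under 0.05, and called 2 of all genes (0.010%). The differences of the other 9 genes ran from -0.29 (Jun, 95% interval -0.83 to 0.25) to 0.10 (Fosb, 95% interval -0.52 to 0.72). Array weights called 1 of the 10.

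Within the 1:1 co-culture 4 of 10 were called, where 56.1% of all genes were. The median difference of erbB2+ minus erbB2- over the 4985 genes with the highest means was -0.53. In the erbB2+ fraction Dusp1 was lower than in the erbB2- fraction by 1.75 (SE 0.12, 3.36-fold, adjusted p = 3.36e-07), Jun by 1.04 and Ier3 by 0.92, and Egr3 was higher by 0.79 (adjusted p = 0.00636), with overlap of arrays. With a replicate block, which compares fractions of the same replicate number, the count was 7 in fits of all 18 arrays and of the 12 co-culture arrays. Fos, Fosb and Fosl1 joined in the first (adjusted p = 0.0392, 0.038 and 0.0387) and Fos, Fosl1 and Egr1 in the second (adjusted p = 0.0311, 0.00975 and 0.0112). It was also 7 without replicate 2 of the 1:1 erbB2- fraction, and 8 with median centring, and the split of 1 higher and 3 lower became 2 and 1 with reference gene centring.

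The difference between the ratios was compared between the fractions as an interaction, that of 1:50 minus 1:1 in the erbB2+ fraction less that in the erbB2- fraction. Dusp1 passed: it was higher at 1:50 than at 1:1 by 2.04 in the erbB2+ and by 0.45 in the erbB2- fraction, a difference of 1.59 (SE 0.16, adjusted p = 0.000217). It was the only 1 of the 10, where 2.75% of all genes passed. Jun (0.75, SE 0.36, adjusted p = 0.225), Ier3 (0.67, SE 0.31, adjusted p = 0.209) and Egr3 (0.14, SE 0.30, adjusted p = 0.769) did not. With a replicate block in the 12 co-culture arrays Jun (adjusted p = 0.0489) and Ier3 (adjusted p = 0.0289) passed as well, giving 3, and without replicate 1 of the 1:1 erbB2- fraction the count was 2. Reference gene centring left 0, with an adjusted p of 0.063 for Dusp1. Over the 4985 genes with the highest means the median interaction was 0.28, and 9.25% of these genes passed. The part of array spread or of the cell make-up of the fractions in the Dusp1 interaction was not tested.

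The 1:1 erbB2+ fraction and MMTV-neu, both labelled cancer, differed in 2 of 10 genes, where 18.3% of all genes were called. Dusp1 was higher in the fraction by 0.93 (SE 0.12, 1.90-fold, adjusted p = 5.67e-05). Egr1 was higher by 0.78 (SE 0.25, adjusted p = 0.0404), with overlap of arrays, and lost its call in 10 of 15 alternatives, including those without MMTV-neu replicate 1 or 3 and without 1:1 erbB2+ replicate 1 or 3. Without 1 array the count ran from 1 to 3, and it was 1 without MMTV-neu replicate 1 or 3 or 1:1 erbB2+ replicate 3. The split of 2 higher and 0 lower became 1 and 2 with reference gene centring.

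The unmixed lines themselves differed in 9 of 10 genes, 8 lower and 1 higher in MMTV-neu, where 86.8% of all genes were called (56.4% higher and 30.4% lower). Beside Dusp1, Jun was lower by 2.61 (SE 0.26, 6.08-fold), Ier3 by 2.55 (SE 0.22, 5.84-fold), Egr1 by 2.47, Fosb by 2.15 and Fos by 2.07. The median was -2.11, against 0.40 over all genes and -1.08 over the genes with the highest means. The split of 8 lower and 1 higher became 6 and 3 with reference gene centring and 7 and 3 after quantile normalization, with the sign of Junb turned in both and that of Fosl1 in the first. The 8 measured reference genes had means below Comma-D by 1.29 in MMTV-neu, 1.00 in the 1:1 erbB2+, 0.40 in the 1:1 erbB2- and 0.21 in the 1:50 erbB2+ fraction, and differed by 0.00059 in the 1:50 erbB2- fraction. Array medians moved the other way, by 0.43, 0.34 and 0.15 in MMTV-neu and the 1:1 erbB2+ and erbB2- fractions and by under 0.1 at 1:50.

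A shift of a whole array leaves the ranks within it unchanged. The reference genes nevertheless also ranked lower in some groups. They stood at a mean percentile of 90.8 in Comma-D, 84.8 in the 1:1 erbB2+ fraction and 82.1 in MMTV-neu. Fos stood at a mean percentile of 96.7 in Comma-D and at 82.7 to 89.7 in the 5 other groups, and Fosb at 94.8 and at 66.6 to 81.1. Fosl1 was at 85.5 in Comma-D, 72.3 in the 1:50 erbB2- and 71.2 in the 1:50 erbB2+ fraction. Dusp1 stayed at 98.7 to 99.5 in Comma-D and the 1:50 and erbB2- fractions, and stood at 94.7 in the 1:1 erbB2+ fraction and 84.5 in MMTV-neu. Egr3 stood at 65.1 in the 1:50 erbB2- fraction and at 99.0 in MMTV-neu. Junb ranked higher in MMTV-neu (92.4) than in Comma-D (87.8), opposite to its log2 difference. Ranks were given as a description and were not tested.

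**Figure D3:**
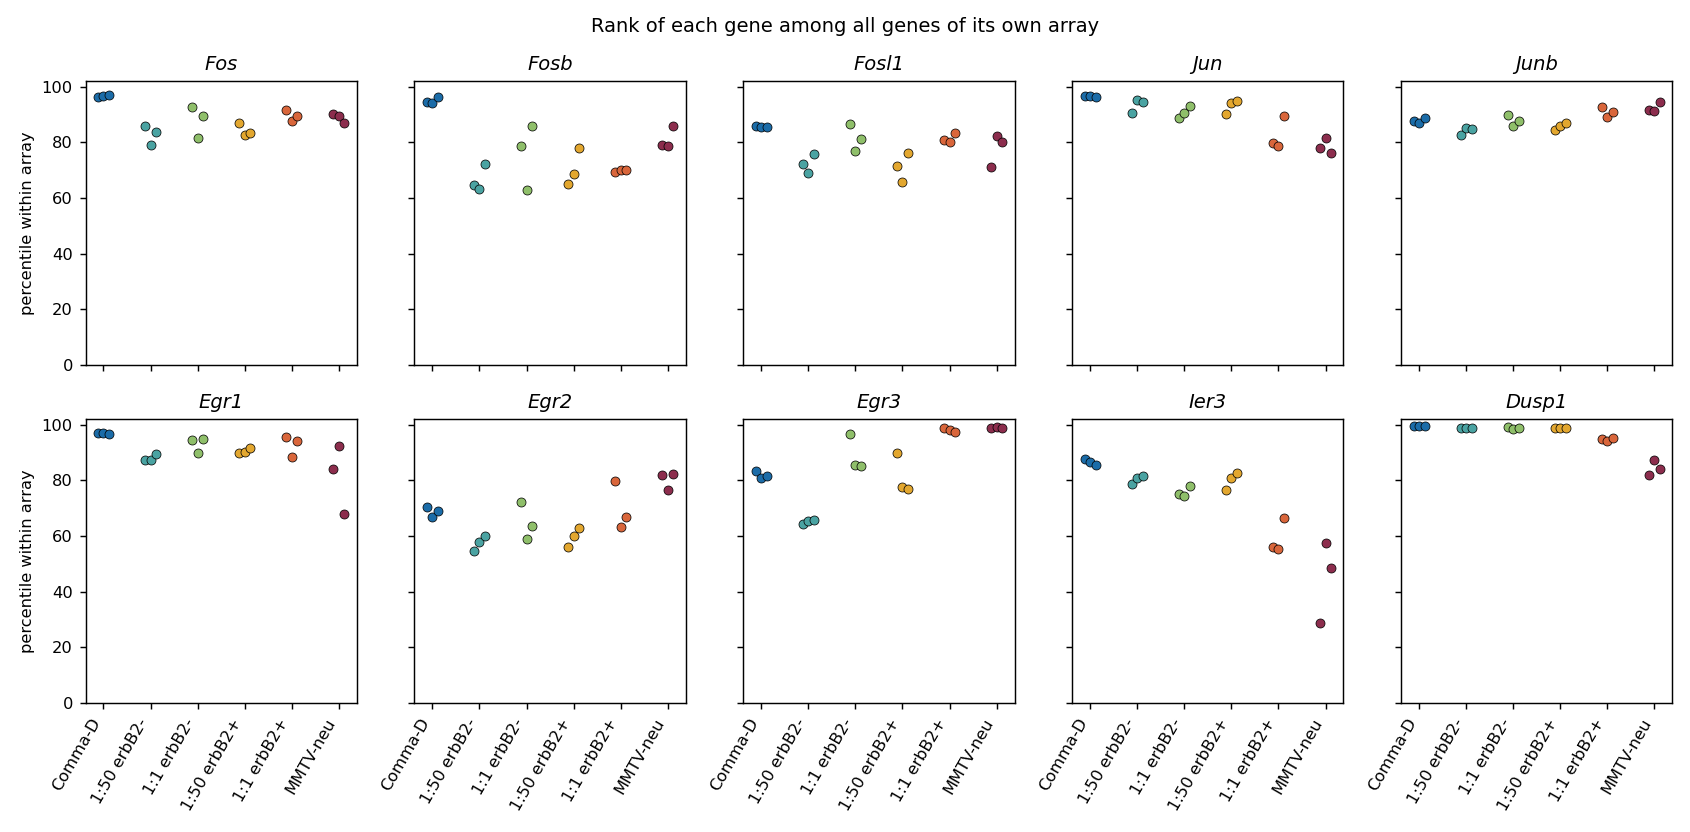
Percentile of each gene among all 19938 genes of its own array (vertical axis, 0 to 100) in the 6 groups (horizontal axis), 1 point per array. Fos and Fosb rank highest in Comma-D, Egr3 ranks near 99 in MMTV-neu, and Ier3 has a mean of 86.7 in Comma-D and 44.9 in MMTV-neu.

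Correlations between the 10 genes over the 18 arrays, which share groups and scale, are given as a description. Jun, Ier3 and Dusp1 ran together (Pearson's r 0.973 for Jun with Ier3 and 0.965 for Ier3 with Dusp1), with Comma-D highest and MMTV-neu lowest. Fos and Fosb ran together (0.916), with Comma-D apart from all else. Egr3 ran against Jun (-0.831), and its closest gene was Egr2 (0.628). Other genes were ranked by likeness with provisional symbols, such as Gm, Rik and LOC names, left out. Of these genes, the most like Fos were Angpt1 (0.960), Trib1 (0.953), Nsg1 (0.949), Itih2 (0.947) and Mir145a (0.939). The most like Fosl1 were Angpt1 (0.893), Nsg1 (0.871), Wif1 (0.864), Mir145a (0.857) and Ier2 (0.854). The most like Egr1 were Hes1 (0.948), Nr4a1 (0.915), Tnfrsf12a (0.912), G6pd2 (0.911) and Cxcl12 (0.906).

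Other genes of the pathway were counted from lists chosen with earlier results known. Of 30 other immediate early genes measured, 4 were called lower and 0 higher in the 1:50 erbB2- fraction than in Comma-D (median -0.31), where 1.08% of all genes were called lower. These were Socs3, a feedback inhibitor of cytokine receptors (-1.24, SE 0.17, adjusted p = 0.000392), the orphan receptor gene Nr4a1 (-1.09, adjusted p = 0.0278), the matricellular gene Ccn1 (-0.70, adjusted p = 0.032) and the kinase gene Sgk1 (-0.68, adjusted p = 0.0489). In the 1:50 erbB2+ fraction 11 were lower and 0 higher (median -0.44), where 4.54% of all genes were called lower, with Socs3 at -1.55, Ier2 at -1.30, Btg2 at -1.24 and Nr4a1 at -1.21. In the 1:1 erbB2- fraction 16 were lower and 0 higher, where 20.9% of all genes were called lower, led by Socs3 (-1.89) and Nr4a1 (-1.48). Between the erbB2+ fractions 18 were higher and 2 lower at 1:50, where 71.4% of all genes were called (27.4% higher and 44.0% lower), led by Gadd45b (1.90), Zfp36 (1.75) and Plk3 (1.74), with Arc lower by 1.16. In MMTV-neu 20 were lower and 4 higher than in Comma-D, where 86.8% of all genes were called (30.4% lower and 56.4% higher), with Ptgs2 lower by 4.57 and Btg2 by 3.93, and Arc higher by 0.81. Shares were larger among the 4985 genes with the highest means. Against Comma-D, 44.2% of these were called lower in the 1:1 erbB2- fraction and 73.2% in MMTV-neu. Between the erbB2+ fractions 68.8% of them were called higher at 1:50.

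Of 16 MAP kinase phosphatases and ERK feedback genes, 4 were lower and 0 higher in the 1:50 erbB2- fraction than in Comma-D (median -0.16), where 1.08% of all genes were called lower. They were Dusp6, the cytoplasmic ERK phosphatase (-1.45, SE 0.19, adjusted p = 0.000392), Errfi1, an inhibitor of the EGF receptor family (-1.09, SE 0.13, adjusted p = 0.00012), and the Sprouty genes Spry1 (-0.93, adjusted p = 0.00521) and Spry2 (-0.62, adjusted p = 0.0415). In the 1:50 erbB2+ fraction those 4 were called lower too, with Dusp6 at -1.88 (SE 0.19, adjusted p = 1.71e-05) and Errfi1 at -1.34, and Dusp8 was higher by 0.42 (adjusted p = 0.0372). Of all genes, 4.54% were called lower and 1.17% higher there. In MMTV-neu 9 were lower and 6 higher than in Comma-D, a share called near the 86.8% of all genes, with Dusp6 lower by 4.09, Dusp7 by 3.81 and Errfi1 by 3.47, and Dusp5 higher by 1.37 and Dusp2 by 1.25.

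Of 20 known AP-1 and EGR targets, 3 were lower and 0 higher in the 1:50 erbB2- fraction than in Comma-D (median -0.30): the collagenase gene Mmp13 (-1.27, adjusted p = 0.0469), Hbegf, an EGF receptor ligand (-1.08, SE 0.13, adjusted p = 0.000162), and tissue factor, F3 (-0.99, adjusted p = 0.000893). In the 1:50 erbB2+ fraction 7 were lower and 0 higher (median -0.50), with Mmp13 at -1.61, Il6 at -1.40, Hbegf at -1.29 and F3 at -1.28. Of all genes, 1.08% were called lower in the 1:50 erbB2- and 4.54% in the 1:50 erbB2+ fraction. Between the erbB2+ fractions 12 were higher and 1 lower at 1:50, no larger a share than the 71.4% of all genes called (27.4% higher and 44.0% lower), led by Il6 (2.87), Cd44 (2.10) and Mmp14 (1.87), with Mmp9 lower by 0.75. Of the 4985 genes with the highest means, 68.8% were called higher in that comparison.

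Few genes of the remaining lists were called at 1:50, where 1.68% of all genes were called in the erbB2- and 5.71% in the erbB2+ fraction. In the 1:50 erbB2- fraction 0 of 13 other AP-1 genes were called by limma against Comma-D (1 at an unadjusted p under 0.05), 0 of 4 EGR and NAB genes (0 unadjusted), 0 of 20 upstream kinases and serum response factor partners (2 unadjusted) and 0 of 11 cytosolic heat shock genes (2 unadjusted). In the 1:50 erbB2+ fraction these counts were 0 of 13 (2 unadjusted), 0 of 4 (0 unadjusted), 1 of 20 and 1 of 11, where Mapk9, the gene of JNK2, was lower by 0.62 (adjusted p = 0.0241) and Hsph1, a chaperone gene, by 0.53 (adjusted p = 0.0335). The line difference, where 86.8% of all genes were called, was mixed: of the other AP-1 genes 6 were lower in MMTV-neu, led by Atf3 (-2.35), and 6 higher, led by Batf3 (1.55). Nab1, a corepressor of EGR proteins, was lower by 3.23 and Egr4 higher by 1.51, and Egfr was lower by 1.56 and Srf higher by 0.97. Whether these lists differed from other genes was not tested.

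**Figure D4:**
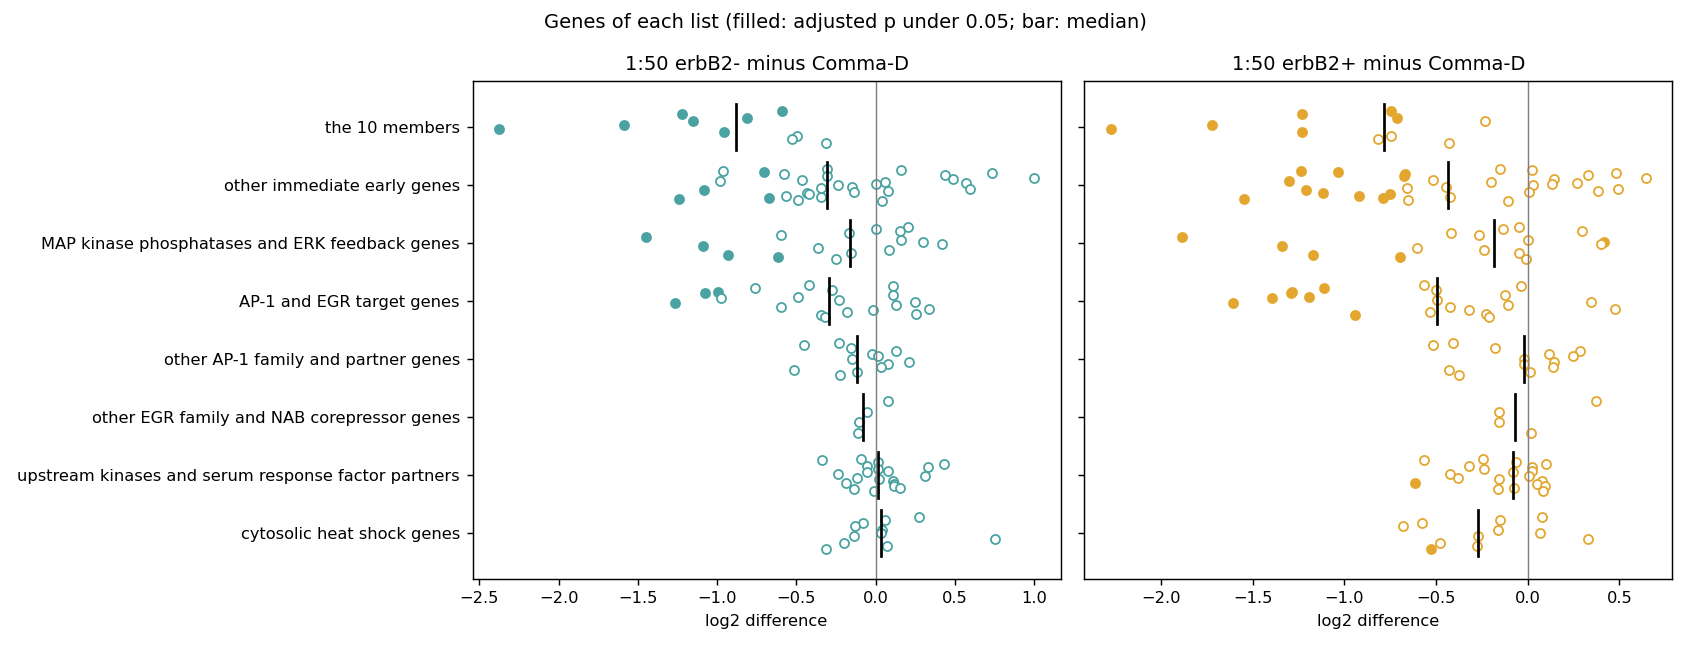
Log2 difference from Comma-D (horizontal axis) of each measured gene of 8 lists (vertical axis) in the 1:50 erbB2- fraction (left) and the 1:50 erbB2+ fraction (right), with filled points at adjusted p under 0.05 and bars at list medians. Called members, other immediate early, feedback and target genes lie at or below -0.59 in both panels apart from Dusp8 at 0.42, and of the other lists Mapk9 and Hsph1 are filled on the right.

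Markers of other cells moved beside these differences. Of 10 fibroblast markers, Dcn (decorin) was lower than in Comma-D by 3.41 (SE 0.16) and Pdgfra by 1.93 (SE 0.35) in the 1:50 erbB2- fraction, and by 3.42 and 2.32 in the 1:50 erbB2+ fraction, whereas Col1a2 was higher by 0.52 and 0.66. The mean level of that list was 7.60 to 7.67 in Comma-D, 6.80 to 7.22 in the 1:50 erbB2- and 6.95 to 7.12 in the 1:50 erbB2+ fraction, and 6 or 7 of the 10 lay above the array median in each group. Of 11 basal markers, 3 were called higher than in Comma-D in the 1:50 erbB2- and 2 in the 1:50 erbB2+ fraction and none lower, with Krt5 higher by 1.53 and 1.37. Of all genes, 0.592% and 1.17% were called higher in these fractions. The mean level of the 11 cytosolic heat shock genes, a sign of handling stress, was 9.95 to 10.0 in Comma-D, 9.95 to 10.1 in the 1:50 erbB2- and 9.60 to 9.84 in the 1:50 erbB2+ fraction. Endothelial, leukocyte and adipocyte markers were low throughout, with 0 to 3 of 9, 1 or 2 of 9 and 0 to 2 of 6 above the array median. The part of any of these in the immediate early differences was not tested.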

How the data were processed

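RNA of 18 samples was hybridised to whole-transcript mouse gene arrays. Per the submitters' processing notes, the authors deposited log2 values made with RMA, R 3.1.2 and limma. Of 35556 probe sets, 21789 name 1 gene in the annotation, which left 19938 genes, and where several probe sets named a gene the one of highest mean over the 18 arrays stood for it. Low values were not filtered. Differences were fitted with limma 3.58.1 in R 4.3.3 in 1 model of 6 group means with 12 residual degrees of freedom, two-sided, adjusted by Benjamini-Hochberg over all genes and called at 0.05. The fit was tested on simulated data. Arrays have no read depth, so their number limits the precision. The 10 genes, the other lists and the markers were chosen with earlier results of these data known, and of each list at most 4 called genes a direction were named. Equal replicate numbers were taken to pair fractions where all 3 correlations of array deviations exceeded 0.1, in 5 of 15 pairs of groups, all of them between co-culture fractions. Alternatives were a filter on the lowest 40% of genes, probe set means, trend and robust priors, gene-by-gene array weights, centring on 8 of 11 reference genes or the median, quantile normalization, a replicate block, a threshold of 0.01, the compared arrays alone and single arrays left out. Leaving out all 3 MMTV-neu arrays, and a block in the 12 co-culture arrays, were alternatives added after the data were seen.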

Additional observations from a re-analysis of the deposited data

Results flagged for a closer look

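Dusp1 was picked out because its difference between the mixing ratios was unlike in the 2 kinds of fraction, erbB2+ and erbB2-, in a direct test. The change from 1:1 to 1:50 was larger in the erbB2+ than in the erbB2- fraction by 1.59 (SE 0.16, limma, adjusted p = 0.000217). All 3 arrays at 1:50 were above all 3 at 1:1 in the erbB2+ fraction and also in the erbB2- fraction, so the fractions differed in size and not in direction. The call was kept in 22 of 23 alternatives, where the difference ran from 1.15 to 1.75.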

How the results depend on the processing

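Over the 10 genes, 12 comparisons and their alternatives, 1743 of 2000 differences kept direction and side of the threshold, 81 lost a call, 79 gained one, and 16 called in either setting reversed. A further 81 that were called in neither setting changed sign. Array weights, which ran from 0.151 to 9.92, raised the count of called genes to 10 in 1:50 erbB2+ minus Comma-D, 7 in 1:50 erbB2+ minus 1:1 erbB2+, 1 in 1:50 erbB2+ minus 1:50 erbB2- and 5 in the interaction, and lowered it to 1 in 1:1 erbB2+ minus MMTV-neu. With them Fos in 1:50 erbB2- minus 1:1 erbB2- reversed to 0.31 and the Egr3 interaction to -0.42. Reference gene centring gave 8 in 1:50 erbB2+ minus 1:1 erbB2+, 4 in 1:50 erbB2- minus Comma-D and 0 in the interaction. It reversed Fosl1 (0.018) and Junb (0.68) in MMTV-neu minus Comma-D, Fos (-0.73), Fosl1 (-1.04) and Junb (-0.90) in 1:50 erbB2+ minus MMTV-neu, Fos (-0.56) and Junb (-0.53) in 1:50 erbB2+ minus 1:1 erbB2+, and Junb (0.31) and Egr2 (0.65) in 1:1 erbB2+ minus Comma-D. Median centring gave 7 in 1:50 erbB2+ minus 1:1 erbB2+, 1 in 1:1 erbB2+ minus MMTV-neu and 8 in 1:1 erbB2+ minus 1:1 erbB2-. Quantile normalization gave 7, 1, 3, 4 and 1 in 1:50 erbB2+ minus 1:1 erbB2+, 1:1 erbB2+ minus MMTV-neu, 1:50 erbB2- minus Comma-D, 1:1 erbB2- minus Comma-D and 1:50 erbB2- minus 1:1 erbB2-. It reversed Junb in MMTV-neu minus Comma-D (0.46), 1:50 erbB2+ minus MMTV-neu (-0.62), 1:50 erbB2+ minus 1:1 erbB2+ (-0.44), 1:1 erbB2+ minus Comma-D (0.28) and 1:1 erbB2- minus Comma-D (0.012). Leaving out the lowest 40% of genes gave 1 in 1:1 erbB2+ minus MMTV-neu. A threshold of 0.01 gave 1 there, 4 in 1:50 erbB2- minus Comma-D and 1 in 1:50 erbB2- minus 1:1 erbB2-, and fitting the compared arrays alone gave 1, in 1:1 erbB2+ minus MMTV-neu, and 0, in 1:50 erbB2- minus 1:1 erbB2-. The replicate block gave 7 in 1:1 erbB2+ minus 1:1 erbB2- in both fits and 3 in the interaction in the 12 co-culture arrays, and moved no other count by over 1.5 times. Comma-D and MMTV-neu share only a number with the fractions, and with the block in all 18 arrays Jun, Junb and Ier3 passed in 1:50 erbB2+ minus Comma-D (adjusted p = 0.0182, 0.022 and 0.0169, a count of 9) and Fos in 1:50 erbB2+ minus MMTV-neu (adjusted p = 0.036). With single arrays left out the counts ran from 9 to 9 between the lines, 5 to 8, 9 to 10, 4 to 7 and 7 to 9 against Comma-D in the 1:50 erbB2+, 1:1 erbB2+, 1:50 erbB2- and 1:1 erbB2- fractions, 6 to 7 and 1 to 3 against MMTV-neu in the 1:50 and 1:1 erbB2+ fractions, 4 to 5 and 1 to 4 between ratios in the erbB2+ and erbB2- fractions, 0 to 0 and 4 to 7 within the 1:50 and 1:1 co-cultures, and 1 to 2 for the interaction. The cause of these changes was not tested. The files used here give no detection calls, so signal over background could not be judged.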
